A study of Homo sapiens with 8 samples.

Results

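The comparison of siVRK1 with control siRNA in HT1080 cells rests on 4 of the 8 arrays of the series, chosen by their titles alone. HT1080 is a human fibrosarcoma line. Of its arrays, 2 hold RNA from cells given an siRNA against VRK1, numbered 308 in the labels, and 2 hold RNA from cells given a scrambled siRNA. The other 4 arrays hold siVRK1 and control cells of MDA-MB-231, a human breast adenocarcinoma line, and enter here to estimate the spread and to test where the lines differ. All groups were cultured for 24 h (10% fetal bovine serum, gentamicin) before a lipid reagent carried the siRNA into the cells, and RNA was prepared after a further 42 h. The knockdown thus rests on 1 siRNA in 1 fibrosarcoma line, and no second siRNA or rescue was analysed here. The labels do not say whether the 2 replicates of a group came from separate cultures, so the p-values measure only the spread between these arrays, which may be technical.

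VRK1 is a serine/threonine kinase of the nucleus. It phosphorylates histone H3, the chromatin tether BANF1, p53 and several transcription factors, and it is known for roles in cell cycle entry, chromosome condensation, the rebuilding of the nuclear envelope after mitosis, Cajal bodies and DNA repair. The question of the series was which mRNAs depend on this kinase in cancer cells.

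Every array reports a log2 intensity for 24526 probes, with a median of 5.93 log2 on all of them. The HT1080 replicates differed less from each other than the MDA-MB-231 replicates. Over the 10539 genes tested, the SD of the difference between replicates was 0.178 log2 for siVRK1 and 0.172 log2 for control in HT1080, against 0.23 log2 for siVRK1 and 0.258 log2 for control in MDA-MB-231. The markers of the line's label were mostly present. Of 8 mesenchymal markers, 7 lay at or above the level of 5.926 log2 used as a filter, with VIM, CAV1, CD44 and LGALS1 above 11 log2 on every HT1080 array, while NT5E lay around the filter level, at 5.73 to 6.04 log2. None of the 5 measured epithelial markers, the 4 leukocyte markers or the 4 muscle markers had a group mean at that level, and of 4 endothelial markers PECAM1 did, at 6.16 to 6.62 log2. The mean over these 5 epithelial markers was 5.67 and 5.75 log2 on the siVRK1 arrays and 5.75 and 5.75 log2 on the control arrays. Other genes counted with these cell types, chosen after their values were seen, were divided. KRT8 and KRT18 (epithelial), CD68 and LAPTM5 (leukocyte) and TIE1 and ENG (endothelial) had means above the filter level in both HT1080 groups. KRT19 (epithelial) and LYZ (leukocyte) did not.

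The targeted mRNA was lower on both siVRK1 arrays. VRK1 read 6.57 and 6.51 log2 with siVRK1, against 7.84 and 7.88 log2 with control siRNA. This is -1.32 log2 with an SE of 0.17 (limma adjusted p = 0.0244) and leaves 40.1% of the control signal with background light included. With background subtracted the change was -1.69 log2 (limma adjusted p = 0.0356), and with any HT1080 array left out it lay between -1.35 and -1.29 log2 but did not pass (adjusted p 0.295 to 0.330). The other kinases of the family did not pass: VRK2 read 7.04 and 6.96 log2 with siVRK1 and 6.69 and 6.80 log2 with control (0.25, limma adjusted p = 0.420), and VRK3 differed by 0.02 log2. Of 20 measured substrates and partners of VRK1, 0 were called by limma, and the median change was 0.01 log2. Among them 1 was higher and 1 lower at an unadjusted p under 0.05 (4.85% and 5.27% of all genes). The highest of them was RAN, the small GTPase of nuclear transport, which binds VRK1, at 0.43 log2 (adjusted p = 0.149), and the lowest was H2AX at -0.28 log2.

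Across the genome, 30 of 10539 genes passed an adjusted p under 0.05 (0.285%), 8 higher (0.0759%) and 22 lower (0.209%) with siVRK1. All 30 had both siVRK1 arrays beyond both control arrays, which 22.5% of all genes did upward and 21.5% downward. Their changes ran from 0.60 to 0.96 log2 upward and from -1.50 to -0.61 log2 downward, while 5% of all genes lay below -0.291 log2 and 5% above 0.273 log2. At an unadjusted p under 0.05 there were 511 genes higher (4.85%) and 555 lower (5.27%). The count depended on each HT1080 array and on the spread taken. Without siVRK1 1, control 1 or control 2 of HT1080 it was 0 (725, 679 and 813 genes at an unadjusted p under 0.05), without siVRK1 2 it was 1, IL11, and with the HT1080 arrays fitted alone it was 95 (0.901%), which included all 30. It was 13 with background subtracted. Without an MDA-MB-231 siVRK1 array the calls of ARIH1, MAD1L1, MORF4L1, NFIB, RRP15, SLC44A1, STAG2 and WASHC1 were lost (adjusted p 0.0511 to 0.0570).

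**Figure D1:**
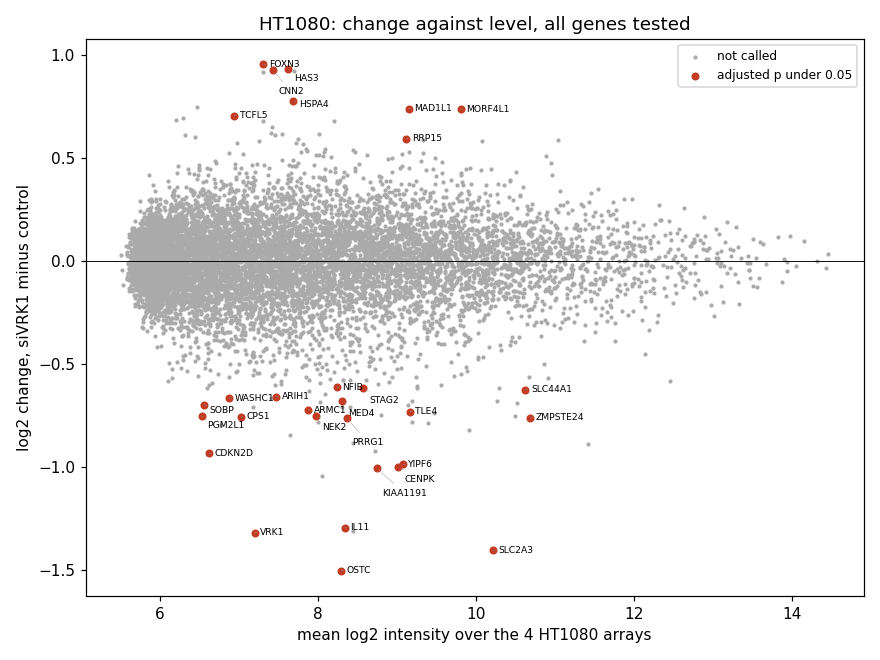
Change in HT1080 (siVRK1 minus control, log2) against the mean log2 intensity over the 4 HT1080 arrays, 1 point for each of the 10539 genes tested. Red points are the 30 genes with an adjusted p under 0.05, of which 8 lie above 0 and 22 below, with OSTC lowest at -1.50 and FOXN3 highest at 0.96.

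Among secreted and cell-surface products, the cytokine gene IL11 fell and the hyaluronan synthase gene HAS3 rose. IL11, which signals through gp130 like IL-6 itself, read 7.53 and 7.86 log2 with siVRK1, against 8.93 and 9.04 log2 with control. That is a change of -1.29 log2 (SE 0.12, limma adjusted p = 0.0136), or 40.8% of the control signal, and the groups lay more than 1 log2 apart. The shared receptor subunit of the family, IL6ST (gp130), read 5.73 and 5.90 log2 with siVRK1 and 6.49 and 6.30 log2 with control, -0.58 log2 without passing (adjusted p = 0.117). LIF, another ligand of the family, differed by 0.36 log2 (adjusted p = 0.416), and IL11 was the 1 called gene of 10 measured in the family.

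HAS3, an enzyme of the plasma membrane that makes hyaluronan, read 8.0 and 8.18 log2 with siVRK1 and 7.15 and 7.16 log2 with control, a 1.91-fold rise (0.93 log2, SE 0.10, limma adjusted p = 0.0244). A second, dim HAS3 probe changed by 0.08 log2 at a level of 6.07 log2 with siVRK1 and 5.99 log2 with control, close to the filter level, and with the mean of both probes HAS3 was not called (0.50 log2, limma adjusted p = 0.0757). PRRG1, a membrane protein with a Gla domain, read 7.96 and 8.01 log2 with siVRK1 and 8.78 and 8.71 log2 with control, and fell by 0.76 log2 (SE 0.10, limma adjusted p = 0.0244). On the brighter HAS3 probe and for PRRG1 the groups did not overlap.

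The promoter of IL11 is shown because IL11 was the call with the smallest adjusted p and the one called down gene whose promoter held an AP-1 element. Capitals mark that element, TGANTCA on either strand, 96 bases before the start. The 250 bases before the first listed start (RefSeq, GRCh38.p14, chr19:55370464-55370713, minus strand) read, 5′ to 3′:
IL11: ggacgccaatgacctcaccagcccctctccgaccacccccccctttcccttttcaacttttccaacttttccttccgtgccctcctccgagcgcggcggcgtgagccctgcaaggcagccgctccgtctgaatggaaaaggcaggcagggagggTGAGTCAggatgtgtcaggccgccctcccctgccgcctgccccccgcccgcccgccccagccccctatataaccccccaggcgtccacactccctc
The same letters occur in 1 of 19 promoters of genes called lower (5.26%) and in 330 of 8713 promoters of all genes tested (3.79%).

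Of the called genes, 4 serve the uptake and use of sugar, choline and ammonia, and all of these fell. SLC2A3, the glucose transporter GLUT3, read 9.60 and 9.42 log2 with siVRK1 and 10.91 and 10.93 log2 with control, a change of -1.40 log2 (SE 0.20, limma adjusted p = 0.0332). SLC2A14 is a close copy of SLC2A3 whose transcripts the probe may not separate, and the probe named for SLC2A14 itself read 6.57 and 6.31 log2 with siVRK1 and 6.52 and 6.61 log2 with control. PGM2L1, which makes glucose 1,6-bisphosphate, read 6.11 and 6.19 log2 with siVRK1 and 6.89 and 6.91 log2 with control (-0.75 log2, SE 0.10, limma adjusted p = 0.0252). Of 29 genes of glucose transport and glycolysis measured, these 2 were called lower and 0 higher, 15 had a negative change, and the median was -0.02 log2. HK2, a hexokinase, stood highest at 0.36 log2 (adjusted p = 0.521), followed by PFKFB3, which makes the glycolytic activator fructose 2,6-bisphosphate, at 0.33 log2 (adjusted p = 0.471), both without passing. Without siVRK1 2 of HT1080 the median of the list was 0.07 log2.

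CPS1, the mitochondrial enzyme that makes carbamoyl phosphate from ammonia, read 6.76 and 6.53 log2 with siVRK1 and 7.47 and 7.33 log2 with control, and fell by 0.76 log2 (SE 0.11, limma adjusted p = 0.0428). SLC44A1, a choline transporter, was one of the brightest called genes, at 10.34 and 10.29 log2 with siVRK1 and 10.96 and 10.91 log2 with control (-0.62 log2, limma adjusted p = 0.0428). It was the 1 called gene among 15 measured for choline and phospholipid metabolism, where 8 changes were positive and 7 negative. ARMC1, a protein of the mitochondrial outer membrane, read 7.58 and 7.45 log2 with siVRK1 and 8.26 and 8.22 log2 with control (-0.72 log2, limma adjusted p = 0.0283).

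Single members of the secretory pathway and the nuclear envelope fell while the rest of their groups did not pass. OSTC, a subunit of the oligosaccharyltransferase that attaches sugars to new proteins in the endoplasmic reticulum, had the largest change of any gene, at 7.75 and 7.33 log2 with siVRK1 and 8.83 and 9.26 log2 with control. Its change of -1.50 log2 (SE 0.24, limma adjusted p = 0.0486) carries the largest SE of the 30. It was not called with background subtracted (adjusted p = 0.0751). It was also not called with no filter (adjusted p = 0.0831) or where the mean of a gene's probes stood for the gene (adjusted p = 0.0573), settings in which its own change was the same -1.50 log2 and the rest of the table differed. It was the 1 called of 23 measured genes of the transferase and translocon, whose median was -0.05 log2 with 11 positive and 12 negative changes.

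YIPF6, a membrane protein of the Golgi, read 8.43 and 8.74 log2 with siVRK1 and 9.64 and 9.50 log2 with control (-0.99 log2, SE 0.12, limma adjusted p = 0.0244). It was the 1 called gene of 39 for Golgi and vesicle traffic, whose median was -0.01 log2. WASHC1, a subunit of the WASH complex that builds actin on endosomes, read 6.60 and 6.50 log2 with siVRK1 and 7.13 and 7.29 log2 with control (-0.66 log2, limma adjusted p = 0.0428). WASHC1 belongs to a family of near-identical copies that 1 probe may not tell apart.

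ZMPSTE24, the protease that matures lamin A, read 10.34 and 10.28 log2 with siVRK1 and 11.16 and 10.97 log2 with control. It fell by 0.76 log2 (SE 0.12, limma adjusted p = 0.0428), the 1 call among 21 measured genes of the nuclear envelope and lamina. In that list 16 changes were negative against 49.3% of all genes, with a median of -0.06 log2. In 4 of the 21 both siVRK1 arrays lay below both control arrays, as in 21.5% of all genes. The negative count was 13 to 17 with 1 HT1080 array left out. LMNB1, lamin B1, stood next lowest at -0.35 log2 without passing (adjusted p = 0.557), and FNTA, the farnesyltransferase subunit that acts on lamins before ZMPSTE24, stood highest at 0.21 log2.

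Chromosome and cell cycle genes were among the called genes in both directions. CENPK, a subunit of the inner kinetochore, read 8.63 and 8.41 log2 with siVRK1 and 9.44 and 9.59 log2 with control, which is 50.1% of the control signal (-1.0 log2, SE 0.11, limma adjusted p = 0.0244). NEK2, a kinase that separates the centrosomes at the start of mitosis, read 7.59 and 7.63 log2 with siVRK1 and 8.33 and 8.38 log2 with control (-0.75 log2, SE 0.11, limma adjusted p = 0.0428). STAG2, a cohesin subunit, read 8.27 and 8.26 log2 with siVRK1 and 8.94 and 8.82 log2 with control (-0.62 log2, SE 0.10, limma adjusted p = 0.0490). STAG2 lay nearest to the threshold and lost its call without each of the 8 arrays in turn, and a dim second STAG2 probe changed by 0.04 log2.

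In the other direction, MAD1L1, a protein of the spindle checkpoint that anchors MAD2 at kinetochores, read 9.61 and 9.43 log2 with siVRK1 and 8.88 and 8.68 log2 with control. It rose by 0.74 log2 (SE 0.11, limma adjusted p = 0.0428). CENPK and MAD1L1 were the called members of 31 measured kinetochore and centromere genes, where 0.285% of all genes were called. Of the 31, 22 had negative changes (49.3% of all genes did), with a median of -0.12 log2. NUF2 at -0.40 log2 and NDC80 at -0.39 log2, both of the outer kinetochore, stood next lowest without passing. NUF2, NDC80, CENPA and MAD2L1 also belong to the list of G2 and mitosis described below.

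CDKN2D, which encodes the CDK4/6 inhibitor p19INK4d, read 6.10 and 6.21 log2 with siVRK1 and 7.11 and 7.06 log2 with control (-0.93 log2, SE 0.12, limma adjusted p = 0.0244). Its second probe changed by -0.07 log2, but at 5.76 log2 with siVRK1 and 5.83 log2 with control it lay under the filter level in HT1080, and with the mean of both probes CDKN2D was not called. Of the 16 measured D cyclins, partner kinases and CDK inhibitors it was the 1 called. Cyclin D1, CCND1, read 10.93 and 11.01 log2 with siVRK1 and 11.79 and 11.93 log2 with control, -0.89 log2, yet did not pass (SE 0.17, limma adjusted p = 0.0927). CDKN1B (p27) stood at -0.36 log2 and CDK4 at 0.12 log2, neither passing.

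**Figure D2:**
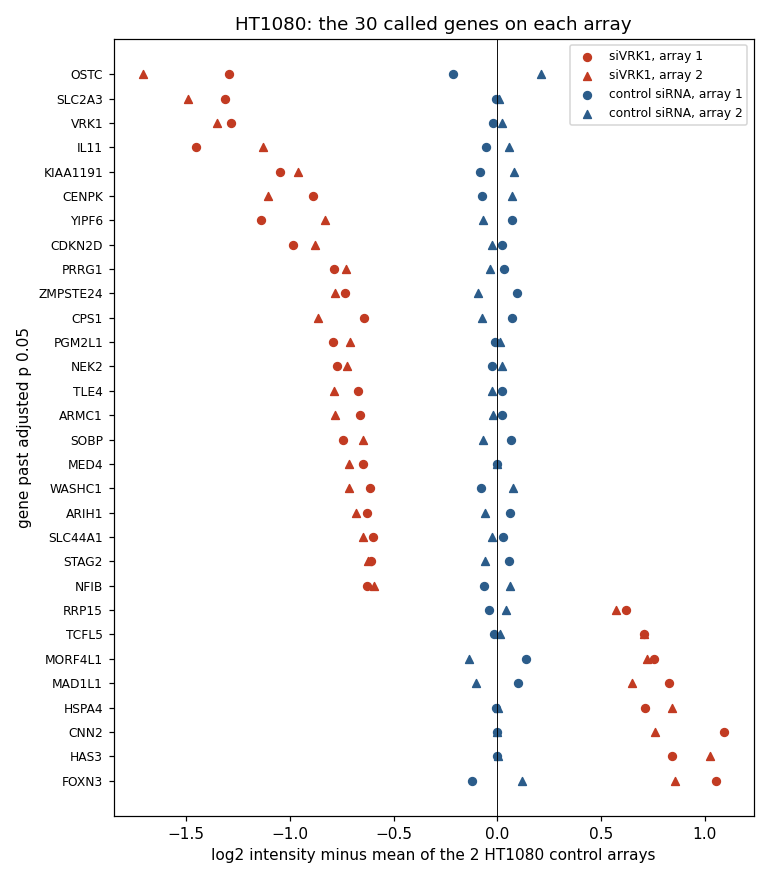
The 30 genes called in HT1080, each as its deviation on every HT1080 array from the mean of the 2 control arrays (log2). Points of the siVRK1 arrays and of the control arrays do not overlap for any gene, and the replicates lie farthest apart for OSTC, at 7.75 and 7.33 log2 with siVRK1 and 8.83 and 9.26 log2 with control.

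Regulators of transcription and chromatin were split between the directions. FOXN3, a forkhead repressor, read 7.88 and 7.69 log2 with siVRK1 and 6.71 and 6.95 log2 with control, a 1.94-fold rise and the largest of any gene (0.96 log2, SE 0.12, limma adjusted p = 0.0244). It was the 1 called of 18 measured forkhead genes, of which 11 had positive changes and the median was 0.05 log2. FOXK1 was next highest at 0.38 log2 (adjusted p = 0.203). TCFL5, a basic helix-loop-helix factor, read 7.29 and 7.30 log2 with siVRK1 and 6.57 and 6.60 log2 with control (0.71 log2, SE 0.11, limma adjusted p = 0.0428). It was the 1 called of 13 measured helix-loop-helix genes, among which ID1 stood lowest at -0.53 log2 and TCF3 next highest at 0.44 log2.

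MORF4L1 (MRG15), a chromodomain protein of histone acetylation complexes, read 10.20 and 10.16 log2 with siVRK1 and 9.58 and 9.30 log2 with control (0.74 log2, SE 0.12, limma adjusted p = 0.0448). It was the 1 call among 19 measured genes of these complexes, whose median was -0.01 log2. With the mean of its probes MORF4L1 was not called, its second probe being dim. TLE4, a Groucho corepressor, read 8.85 and 8.74 log2 with siVRK1 and 9.55 and 9.50 log2 with control (-0.73 log2, SE 0.10, limma adjusted p = 0.0252). MED4, a subunit of Mediator, read 8.0 and 7.93 log2 with siVRK1 and 8.65 and 8.65 log2 with control (-0.68 log2, limma adjusted p = 0.0428). NFIB, a nuclear factor I protein, read 7.92 and 7.95 log2 with siVRK1 and 8.48 and 8.61 log2 with control (-0.61 log2, limma adjusted p = 0.0428).

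The remaining called genes served protein folding, turnover, ribosome assembly and the cytoskeleton, or have no role stated here. HSPA4, a chaperone of the Hsp110 family, read 8.01 and 8.15 log2 with siVRK1 and 7.30 and 7.31 log2 with control (0.78 log2, SE 0.12, limma adjusted p = 0.0428), the 1 called of 32 cytosolic chaperones measured. CNN2, the actin-binding protein calponin 2, read 8.06 and 7.72 log2 with siVRK1 and 6.96 and 6.96 log2 with control (0.93 log2, SE 0.12, limma adjusted p = 0.0244), and its second probe changed by 0.42 log2, at 6.37 log2 with siVRK1 and 5.95 log2 with control. RRP15, a factor of ribosomal RNA processing, read 9.44 and 9.39 log2 with siVRK1 and 8.78 and 8.86 log2 with control (0.60 log2, limma adjusted p = 0.0428). These rises were each clear of the control replicates.

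ARIH1, a ubiquitin ligase, read 7.17 and 7.12 log2 with siVRK1 and 7.86 and 7.74 log2 with control (-0.66 log2, limma adjusted p = 0.0434). KIAA1191 read 8.20 and 8.28 log2 with siVRK1 and 9.16 and 9.33 log2 with control (-1.0 log2, SE 0.13, limma adjusted p = 0.0244), and its second probe changed by -0.87 log2 at nearly the same level. SOBP read 6.16 and 6.26 log2 with siVRK1 and 6.98 and 6.84 log2 with control (-0.70 log2, limma adjusted p = 0.0428). The second probe of MORF4L1 changed by 0.25 log2, at 6.03 log2 with siVRK1 and 5.78 log2 with control, near the filter level.

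Just outside the threshold lay 16 genes that the naming rule takes, 8 in each direction. The rule takes the smallest unadjusted p among genes not called whose groups do not overlap. Of all genes, 22.5% had groups apart upward and 21.5% downward. The lower ones were SFXN1, a mitochondrial serine transporter, at -1.04 log2 (limma adjusted p = 0.0759), L3HYPDH at -0.71, CEP55, a protein of the last step of cell division, at -0.60, LAMA5, a laminin chain, at -0.59, KIF11, the kinesin that pushes spindle poles apart, at -0.58 (adjusted p = 0.0530), CTHRC1 at -0.57, ALDH9A1 at -0.57 and the spindle protein SPAG5 at -0.55. The higher ones were DSEL at 0.75, TNIP2, which binds the NF-kB inhibitor A20, at 0.70, the zinc transporter SLC39A11 at 0.68, SCG5 at 0.65, WBP1L at 0.62, OR51B5 at 0.59, the kinase SGK1 at 0.58 and TTC19 at 0.51 log2 (adjusted p = 0.0547 for OR51B5 to 0.0847 for DSEL). With the HT1080 arrays fitted alone every one of these except DSEL passed, where 0.901% of all genes did. They had been picked for a small p on these same arrays.

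Of the 45 gene lists, that of G2 and mitosis had the most one-sided changes. Of 50 members measured, 48 had a negative change, against 49.3% of all genes, and the median was -0.37 log2 against 0.0023 log2 for all genes. NEK2 alone passed over all genes, 0 rose, and 31 were lower at an unadjusted p under 0.05 where 5.27% of all genes were. In 45 of 50 both siVRK1 arrays lay below both control arrays, against 21.5% of all genes. The shift was alike on each array: the median deviation from the control mean was -0.37 and -0.34 log2 on the siVRK1 arrays, and -0.01 and 0.01 log2 on the control arrays. Without each HT1080 array in turn the median ran from -0.378 to -0.328 log2, with 48 negative changes each time. Fewer cells in G2 and mitosis and less mRNA per such cell cannot be told apart in RNA from whole cultures.

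Within the list, values below -0.5 log2 covered kinesins, kinases, cyclin B2 and chromosome proteins. TOP2A, the topoisomerase that untangles sister chromosomes, read 10.14 and 10.22 log2 with siVRK1 and 10.90 and 10.83 log2 with control (-0.69 log2, SE 0.17, limma adjusted p = 0.184). KIF2C, a kinesin that takes microtubules apart at kinetochores, read 7.05 and 7.11 log2 with siVRK1 and 7.85 and 7.64 log2 with control (-0.66 log2, limma adjusted p = 0.0933). KIF11 read 8.04 and 8.01 log2 with siVRK1 and 8.59 and 8.62 log2 with control, the closest replicates of these. HMMR, a hyaluronan receptor that also binds the spindle, read 8.96 and 8.94 log2 with siVRK1 and 9.70 and 9.43 log2 with control (-0.62 log2, limma adjusted p = 0.117). CCNB2, cyclin B2, chosen after its values were seen, read 9.24 and 9.28 log2 with siVRK1 and 9.80 and 9.93 log2 with control (-0.60 log2, limma adjusted p = 0.125). The 2 members above 0 were the kinesin CENPE at 0.04 log2 and the checkpoint protein MAD2L1 at 0.19 log2. Without control 2 MAD2L1 turned to -0.04 log2 and CDC25C, the phosphatase that activates CDK1, to 0.05 log2, against -0.10 log2 with all arrays. With the HT1080 arrays fitted alone 9 of the 50 passed, all lower: AURKA, BIRC5, CCNB2, HMMR, KIF11, KIF2C, NEK2, SPAG5 and TOP2A, where 0.901% of all genes passed. TOP2A also passed without either MDA-MB-231 control array (limma adjusted p = 0.0362).

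**Figure D3:**
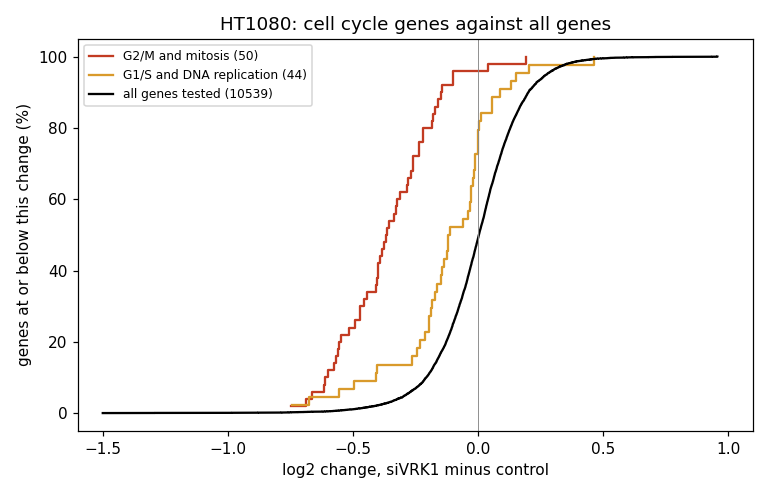
Share of genes (%) at or below each change in HT1080 (siVRK1 minus control, log2) for the G2/M and mitosis list, the G1/S and DNA replication list and all genes tested. The G2/M genes centre on -0.37 log2 and the G1/S genes on -0.12 log2, while all genes centre on 0.

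Many genes of this list are known to be driven through a CHR element (TTTGAA) and CCAAT boxes close to their start, which bind the MuvB complexes and NF-Y, and the following promoters show where these letters lie in members described above. Capitals mark CHR elements and CCAAT boxes found on either strand, so some are printed as the reverse complement. Each sequence is the 250 bases before the first listed start, 5′ to 3′ on the gene's strand (RefSeq, GRCh38.p14): NEK2 at chr1:211675622-211675871, minus strand, KIF11 at chr10:92592880-92593129, CCNB2 at chr15:59104896-59105145 and HMMR at chr5:163460382-163460631, plus strand.
NEK2: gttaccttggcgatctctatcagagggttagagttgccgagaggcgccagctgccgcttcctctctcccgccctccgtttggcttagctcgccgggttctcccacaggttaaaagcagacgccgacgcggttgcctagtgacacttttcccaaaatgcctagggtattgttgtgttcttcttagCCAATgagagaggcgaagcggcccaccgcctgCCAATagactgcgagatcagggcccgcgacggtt
KIF11: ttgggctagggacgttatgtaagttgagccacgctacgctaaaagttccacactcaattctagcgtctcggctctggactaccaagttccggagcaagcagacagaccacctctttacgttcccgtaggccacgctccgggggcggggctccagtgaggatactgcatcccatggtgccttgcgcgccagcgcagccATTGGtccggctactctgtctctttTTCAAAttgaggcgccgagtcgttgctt
CCNB2: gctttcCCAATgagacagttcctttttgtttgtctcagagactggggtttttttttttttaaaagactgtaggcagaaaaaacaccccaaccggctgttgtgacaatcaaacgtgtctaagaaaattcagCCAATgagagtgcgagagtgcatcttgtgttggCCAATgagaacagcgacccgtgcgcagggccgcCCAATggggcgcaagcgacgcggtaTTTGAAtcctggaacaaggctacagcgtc
HMMR: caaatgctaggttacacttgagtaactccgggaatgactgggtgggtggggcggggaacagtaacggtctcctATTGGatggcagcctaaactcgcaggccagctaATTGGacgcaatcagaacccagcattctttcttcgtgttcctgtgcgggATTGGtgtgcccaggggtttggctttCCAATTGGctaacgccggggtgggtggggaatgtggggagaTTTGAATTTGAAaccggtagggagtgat
NEK2, the called gene, held 2 CCAAT boxes and no CHR letters in this window. KIF11 held a CHR 28 bases and a CCAAT box 53 bases before the start, CCNB2 a CHR at 29 bases and 4 CCAAT boxes, and HMMR 2 CHR elements, the nearer at 22 bases, and 5 CCAAT boxes, 2 of them overlapping on opposite strands.

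Of the 43 G2/M genes with a promoter in the table, 19 held a CHR (44.19%), against 751 of 8713 promoters of all genes tested (8.62%). A CCAAT box was found in 32 of 43 (74.42%) against 35.87% of all, and both elements in 18 (41.86%) against 3.59%. The printed promoters thus do not stand for the whole list. Of other members described above, TOP2A held both elements and MAD2L1 a CCAAT box alone. KIF2C, SPAG5, CENPE and CDC25C held neither. The motif shares of a gene list count all its members, whatever their change with siVRK1. Of the 19 promoters of genes called lower, 0 held a CHR and 8 a CCAAT box (42.11%). Of the 8 promoters of genes called higher, 1 held a CHR (FOXN3, 247 bases before the start) and 1 held a CCAAT box.

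The genes of G1/S and DNA replication stood closer to 0. Of 44 measured, 35 had a negative change with a median of -0.12 log2, and 0 were called by limma. Among the 44, 1 was higher and 6 lower at an unadjusted p under 0.05 (4.85% and 5.27% of all genes). GINS2, of the replicative helicase, read 8.40 and 8.45 log2 with siVRK1 and 9.09 and 9.25 log2 with control (-0.75 log2, SE 0.20, adjusted p = 0.236). MCM10, an initiation factor, read 8.75 and 8.95 log2 with siVRK1 and 9.60 and 9.45 log2 with control (-0.68 log2, adjusted p = 0.140), and PCNA, the sliding clamp, stood at -0.56 log2. With the HT1080 arrays fitted alone GINS2 (limma adjusted p = 0.0162) and MCM10 (limma adjusted p = 0.0329) passed, 2 of the 44, and GINS2 also passed without either MDA-MB-231 control array (limma adjusted p = 0.04). Cyclin E1, CCNE1, stood at the other end, at 7.99 and 7.92 log2 with siVRK1 and 7.32 and 7.66 log2 with control (0.46 log2, adjusted p = 0.339). In their promoters an E2F element (TTTGGCG or TTTCGCG on either strand) was in 10 of 40 (25%), against 4.38% of all and 2.33% of the G2/M genes, and a CHR in 1 of 40 (2.5%).

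Among the other growth and stress regulators, some genes had large values without a call. MYC read 7.64 and 7.90 log2 with siVRK1 and 6.78 and 6.93 log2 with control, 0.92 log2 (SE 0.19, limma adjusted p = 0.120), and MXD4, a partner of MAX that opposes MYC, read 0.51 log2 higher. SNAI2, a repressor of epithelial genes, read 8.07 and 8.24 log2 with siVRK1 and 7.24 and 7.23 log2 with control, 0.92 log2 (SE 0.21, limma adjusted p = 0.137). Both had siVRK1 arrays well clear of the controls. Of the epithelial genes themselves 8 were measured, with 0 called and a median of -0.01 log2. Of these, CDH1, JUP, KRT19 and CLDN7 had group means of 5.67 to 5.86 log2 in HT1080, below the filter level. No fall could have been read for them. VIM, the mesenchymal filament gene, stood at -0.29 log2. SPRY4, a feedback inhibitor of ERK signalling, stood at -0.51 log2 (adjusted p = 0.225).

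PARP1, the sensor of DNA breaks, read 9.61 and 9.39 log2 with siVRK1 and 10.38 and 10.26 log2 with control, -0.82 log2 (SE 0.16, limma adjusted p = 0.0992). It stood lowest of 37 measured genes of damage signalling and repair, of which 0 were called by limma and 25 had negative changes. In that list 1 was higher and 3 lower at an unadjusted p under 0.05 (4.85% and 5.27% of all genes). BARD1, the partner of BRCA1, stood at -0.51 log2, and the kinase ATM stood highest at 0.32 log2. The p53 targets split evenly, with 11 positive and 10 negative changes among 21 and a median of 0.02 log2.

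**Figure D4:**
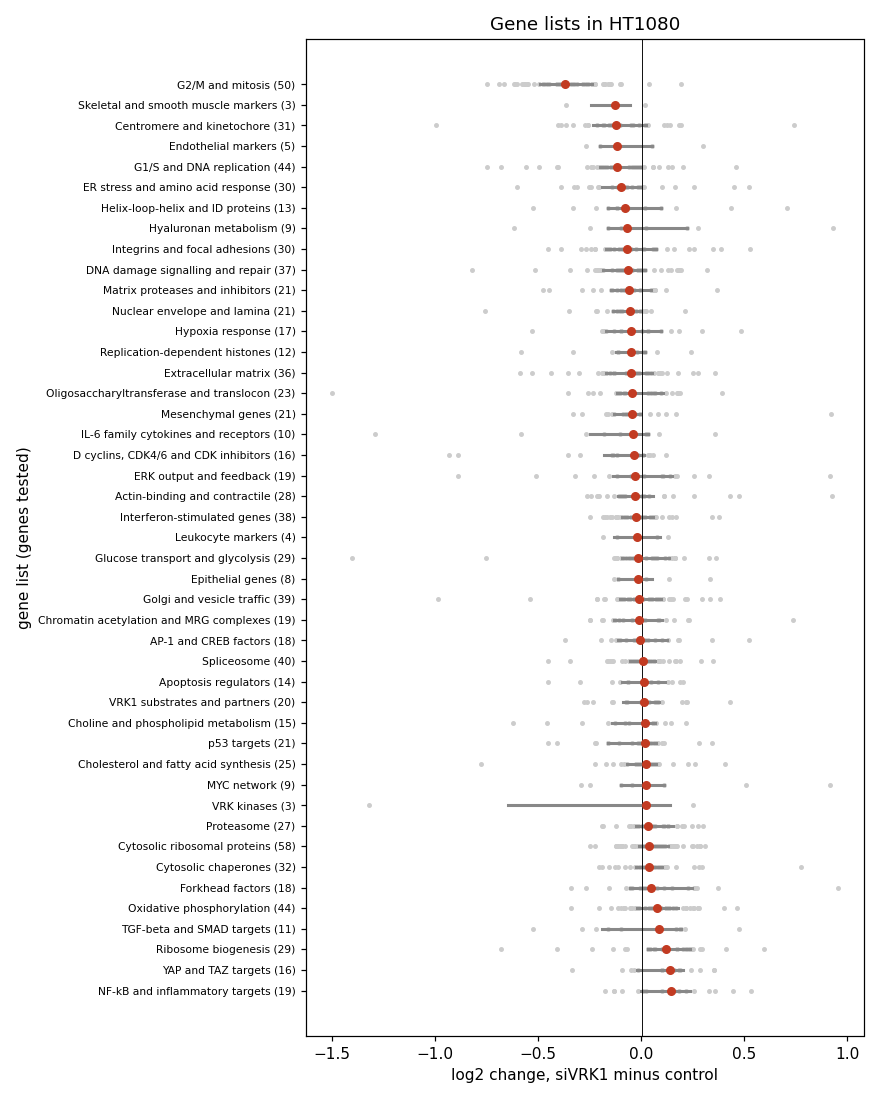
Change in HT1080 (siVRK1 minus control, log2) of the members of each gene list, with grey points for members, a bar for the quartiles and a red mark for the median; the vertical line is the median of all genes. The G2/M and mitosis list has the median farthest from 0, at -0.37 log2, and the medians of the NF-kB targets (0.15), YAP targets (0.14) and ribosome biogenesis genes (0.12) lie highest.

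Inflammatory, matrix and organelle genes gave smaller medians. Of 19 NF-kB and inflammatory targets 14 had positive changes (50.7% of all genes did), with a median of 0.15 log2 and 0 called by limma. Among the 19, 2 were higher at an unadjusted p under 0.05 (4.85% of all genes). IL1B, a secreted cytokine, read 8.33 and 8.36 log2 with siVRK1 and 7.76 and 7.86 log2 with control, 0.53 log2 (SE 0.10, limma adjusted p = 0.0854). Of 36 extracellular matrix genes 24 had negative changes, led by LAMA5 and by the collagen prolyl hydroxylase P4HA1 at -0.53 log2 and the lysyl oxidase-like LOXL3 at -0.44 log2. PLAUR, the urokinase receptor, stood at -0.47 log2 and its ligand PLAU at -0.45 log2, the lowest of 21 matrix proteases and inhibitors.

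Ribosome biogenesis genes had 23 of 29 positive changes and a median of 0.12 log2, with RRP15 called, and NOP58, a box C/D ribonucleoprotein, lowest at -0.68 log2 (adjusted p = 0.406). Oxidative phosphorylation genes had 29 of 44 positive, with a median of 0.07 log2, and cytosolic ribosomal protein genes 40 of 58, with a median of 0.04 log2. Genes of the ER stress and amino acid response had 22 of 30 negative, with a median of -0.10 log2. Limma called 0 genes in these last lists. At an unadjusted p under 0.05 the oxidative phosphorylation list had 4 higher and 1 lower, the ribosomal protein list 3 higher, and the stress list 1 lower. Over all genes 4.85% were higher and 5.27% lower at that p.

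For some genes the MDA-MB-231 arrays set the error. HMGCS1, an early enzyme of cholesterol synthesis, read 8.80 and 8.80 log2 with siVRK1 and 9.57 and 9.58 log2 with control in HT1080, -0.78 log2, while in MDA-MB-231 it read 8.22 and 8.98 log2 with siVRK1 and 9.11 and 10.22 log2 with control. Its SE was 0.32 log2 over all arrays (adjusted p = 0.445) and 0.09 log2 with the HT1080 arrays fitted alone (limma adjusted p = 0.0118). The stress factor ATF3 read 7.28 and 7.35 log2 with siVRK1 and 6.80 and 6.80 log2 with control, 0.52 log2, with adjusted p = 0.750 over all arrays and 0.0481 alone. CCND1, MYC and SNAI2 also passed with the HT1080 arrays alone (limma adjusted p = 0.00918 for CCND1, 0.0141 for MYC and 0.00918 for SNAI2).

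Of the 30 called genes, 27 had a change of the same sign in MDA-MB-231. How many of all genes had the same sign in both lines was not counted, so no share stands beside the 27. In MDA-MB-231 16 of the 30 were called as well, where 0.892% of all genes were, with 1 estimate of the spread shared by both lines. The 30 were picked for their HT1080 change, which is 1 term of the difference between the lines. A raised share of the 30 in a test of that difference is thus partly built in. The test of the difference between the lines called 0 genes by limma (0%), with 643 of all genes and 11 of the 30 at an unadjusted p under 0.05. Without MDA-MB-231 siVRK1 2 it called CCNA1 (limma adjusted p = 0.0358). Among the 30 called genes, the largest difference belonged to TLE4, at -0.73 log2 in HT1080 and 0.05 log2 in MDA-MB-231 (difference -0.78 log2, SE 0.14, limma adjusted p = 0.329). TLE4 read 5.72 to 5.83 log2 on all MDA-MB-231 arrays, and SOBP (-0.70 log2 in HT1080, 0.04 log2 in MDA-MB-231) read 5.64 to 5.78 log2 there, below the filter level, where no fall could have been read. Other genes were above it in both lines. MAD1L1 changed by 0.74 log2 in HT1080 and by 0.00 log2 in MDA-MB-231, where it read 8.13 to 8.27 log2 (difference 0.74 log2, limma adjusted p = 0.439). HSPA4 changed by 0.78 log2 in HT1080 and 0.08 log2 in MDA-MB-231, and NFIB by -0.61 log2 in HT1080 and -0.05 log2 in MDA-MB-231, with neither difference past the threshold. P4HA1 and ID1 differed in sign, at -0.53 log2 for both in HT1080 and 0.91 log2 for P4HA1 and 0.76 log2 for ID1 in MDA-MB-231 (limma adjusted p of the difference 0.329 for P4HA1 and 0.560 for ID1).

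**Figure D5:**
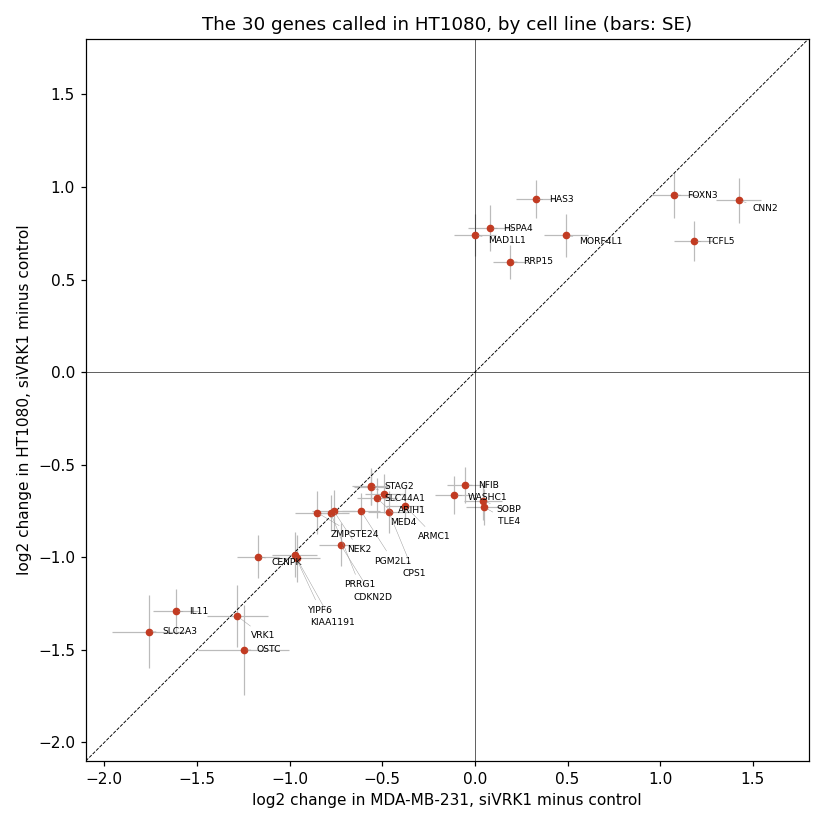
The 30 genes called in HT1080, with the change in HT1080 on the vertical axis and in MDA-MB-231 on the horizontal axis (siVRK1 minus control, log2, bars are SE of the limma fit), and a dashed line of equal change. In 27 genes the sign is the same in both lines. TLE4, SOBP and MAD1L1 lie near 0 in MDA-MB-231, and so do NFIB (-0.05), HSPA4 (0.08) and WASHC1 (-0.11) of the 27.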

How the data were processed

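Biotinylated cRNA from siVRK1 and control cells of HT1080 and MDA-MB-231 was read on 8 Illumina bead arrays, 2 for each of 4 groups. The authors deposited log2 intensities. GenomeStudio is the tool in the submitters' processing notes; its normalization steps and the background treatment are not given in the sources used here. At every percentile compared the columns lay within 0.00273 log2 of each other, and no normalization was added to the values the authors deposited. A log2 change of a dim probe is smaller than the true one where background light remains, and the number of arrays limits the precision.

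Of 24526 probes, 21834 have 1 gene symbol in the platform annotation and 2692 none; 21822 were named through a human gene table (GRCh38.p14, for names) and 12 keep the platform's name. Probes were kept where the highest group mean reached the median of all values, 5.926 log2, and the brightest kept probe stood for its gene, giving 10539 genes. Limma 3.58.1 in R 4.3.3 (lmFit, eBayes) fitted a mean per group over all 8 arrays, with 4 residual degrees of freedom per gene; the prior adds 5.49. Tests were two-sided, with Benjamini-Hochberg adjustment over all genes and calls at 0.05. SE is that of the fit. The procedure was tested on simulated data.

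The naming rule takes VRK1 and the called genes. It adds the 8 genes per direction with the smallest p among those not called whose groups do not overlap. It also takes the 3 highest and 3 lowest members of each list. Not every list, nor every such member, is described in the text. Genes outside the rule were chosen after their values were seen. The 45 lists hold 1174 symbols, of which 974 were tested and 88 were not on the array, and they are described without a test. The compared groups, genes and lists were chosen with earlier results of these data known. The alternatives were other spreads, filters, probe rules, background, scaling, a replicate block, other thresholds, and each array left out. Promoter sequences are RefSeq's.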

Additional observations from a re-analysis of the deposited data

How the results depend on the processing

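The 30 calls rest on few arrays. Without an HT1080 array the count was 0 to 1 and VRK1 changed by -1.35 to -1.29 log2 with an adjusted p of 0.295 to 0.330, and without an MDA-MB-231 array the count was 27 to 40. It was 95 with the HT1080 arrays alone, 83 with array weights, 71 at an adjusted p under 0.1 and 13 with background subtracted. The numbers of the replicates are not said to pair the arrays, and the deviations of same-numbered HT1080 arrays correlated at r = -0.0478 over genes and those of MDA-MB-231 at r = 0.478. The replicate block called 63 genes, with all 30 among them, and 43 genes, with 23 of the 30, with the HT1080 arrays alone. The count was 26 to 34 with an intensity trend, a robust prior, no filter, a filter on HT1080, a stricter filter (chosen after seeing the data), the mean of probes or cyclic loess. ARIH1, MAD1L1, MORF4L1, NFIB, RRP15, SLC44A1, STAG2 and WASHC1 lost the call without an MDA-MB-231 siVRK1 array (adjusted p 0.0511 to 0.0570). CENPK, CNN2, FOXN3, IL11, KIAA1191, PGM2L1, SLC2A3, VRK1 and YIPF6 kept it in all 12 settings that leave out no array. The difference between lines called 3 genes with the replicate block, CCNA1, ID3 and P4HA1 (-1.44 log2 for P4HA1, adjusted p = 0.0342 for each), and 1, CCNA1, without MDA-MB-231 siVRK1 2. Without 1 HT1080 array or another the sign of 4602 of the 10539 changes turned, 350 of them among the 974 list members and 0 among the called genes. No called gene could turn, since each had both siVRK1 arrays beyond both control arrays. The sign of 16 of the 45 list medians also turned, all within 0.0497 log2 of 0 with all arrays. Among the genes named singly, CDC25C ran from -0.25 to 0.0504 (without control 2) log2, MAD2L1 ran from -0.0408 (without control 2) to 0.43 log2, RPL7A from -0.16 (without siVRK1 1) to 0.79 log2 and VRK3 from -0.054 (without siVRK1 2) to 0.10 log2. The causes were not tested. Detection p-values were not analysed here, so dim probes limit what can be read near 5.93 log2.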
